A study of Mus musculus with 12 samples.

Results

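HE1, or hemogenic endothelium 1, is the earlier and most endothelial of 3 sorted mouse cell populations made from embryonic stem cells on the way to blood. The comparison described here is between HE1 cells in which the leukaemia fusion RUNX1-EVI1 was switched on with doxycycline and HE1 cells without the drug, across all genes. It rests on 4 of the 12 libraries of the series, 2 with doxycycline (PlusDox HE1) and 2 without (NoDox HE1), taken by their labels. All groups carried the same A2lox stem cells with a doxycycline-inducible RUNX1-EVI1 cassette placed by the p2lox targeting vector. FLK1+ cells purified from embryoid bodies of 3.25 days were grown with VEGF and IL-6 for 1 day, then for 18 hours with 0.5 µg/ml doxycycline or with 0, and sorted. The labels name colonies but not how many entered the libraries, and they call the replicates biological without saying more. The p-values measure the spread between libraries, pooled over the 6 groups of the series and not taken from the 4 HE1 libraries alone. No group analysed here received doxycycline without the cassette, so the drug and the fusion cannot be told apart.

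Hemogenic endothelium is endothelium that turns into blood cells, a step that needs the transcription factor RUNX1. RUNX1-EVI1 joins the DNA-binding part of RUNX1 to most of EVI1, a zinc finger repressor encoded by Mecom. In embryonic vessels, arterial endothelium is marked by Notch ligands, CXCR4 and VEGF signalling, and venous endothelium by COUP-TFII, EPHB4 and the apelin receptor. Hemogenic cells arise mostly in arterial walls, under the influence of BMP ligands, and lose their endothelial character as they become round blood cells.

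Expression was measured as FPKM (fragments normalised for transcript length and library size), and differences are PlusDox minus NoDox on the log2(FPKM + 1) scale, which understates the change of genes near 0. The endothelial label held in the data. All 8 endothelial markers, Cdh5 and Pecam1 among them, were above 1 FPKM in every HE1 library, and their sum was 1273 to 1751 FPKM in NoDox and 1319 to 1514 FPKM in PlusDox. Ptprc, the pan-leukocyte antigen, was listed at 0 in both NoDox libraries, and 4 leukocyte markers summed to at most 4.74 FPKM. In bulk RNA of this kind, fewer cells of a type and less RNA per cell cannot be told apart. NoDox replicate 1 and PlusDox replicate 2 each had 13681 and 19970 FPKM of Lars2 against 56.1 and 54.8 FPKM in the other 2 HE1 libraries, so that each group held 1 library of either class. Depth relative to the median library, read from the steps between low values, was 1.05 and 1.39 in NoDox and 1.59 and 0.578 in PlusDox.

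Doxycycline changed 182 of 13316 tested genes in HE1 (1.37%, limma, adjusted p below 0.05), of which 128 rose (0.961%) and 54 fell (0.406%). The genes that rose were mostly silent or low without the drug, and those that fell were well expressed. Called genes differed by at least 0.848, and a gene near 0 without the drug cannot fall that far. This contrast is therefore partly set by the scale. The median of the 128 was 1.14 FPKM in NoDox and 5.76 FPKM in PlusDox, and 63 of them had a NoDox mean under 1 FPKM. The median of the 54 was 17.9 FPKM in NoDox and 6.0 FPKM in PlusDox, against a NoDox median of 9.08 FPKM over all tested genes. Of the 128, 111 would have been tested without any PlusDox HE1 library. The PlusDox and NoDox libraries did not overlap for any of the 182 genes, which also held for 35.6% of all tested genes. Within each library class, all 128 rises and all 54 falls were at least 0.5 in the same direction. Their medians were 1.41 and −1.11 between the libraries low in Lars2, and 1.34 and −1.35 between those high in it. Because the groups did not overlap for called genes, signs were bound to hold in each class and with a single library left out. The spread was pooled over all groups, and with only the 4 HE1 libraries 2 genes were called, 1 of them among the 182. The calls also depended on single libraries. When NoDox replicate 1 or 2 was left out, 2 or 77 of the 182 remained called, and when PlusDox replicate 1 or 2 was left out, 45 or 93, with the same sign for all 182 in each case. With a term for library class 169 of the 182 remained, and of the 87 called genes named below 80 did, Nts, Cxcr4, Dll4, Hapln1, Bmx, Pdgfa and Sh3bgrl2 being lost (adjusted p 0.0502 to 0.0701). When NoDox replicate 1, NoDox replicate 2, PlusDox replicate 1 or PlusDox replicate 2 was left out, the named calls that remained numbered 2, 47, 34 or 51, and without NoDox replicate 1 these were Ltb and Mall.

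**Figure D1:**
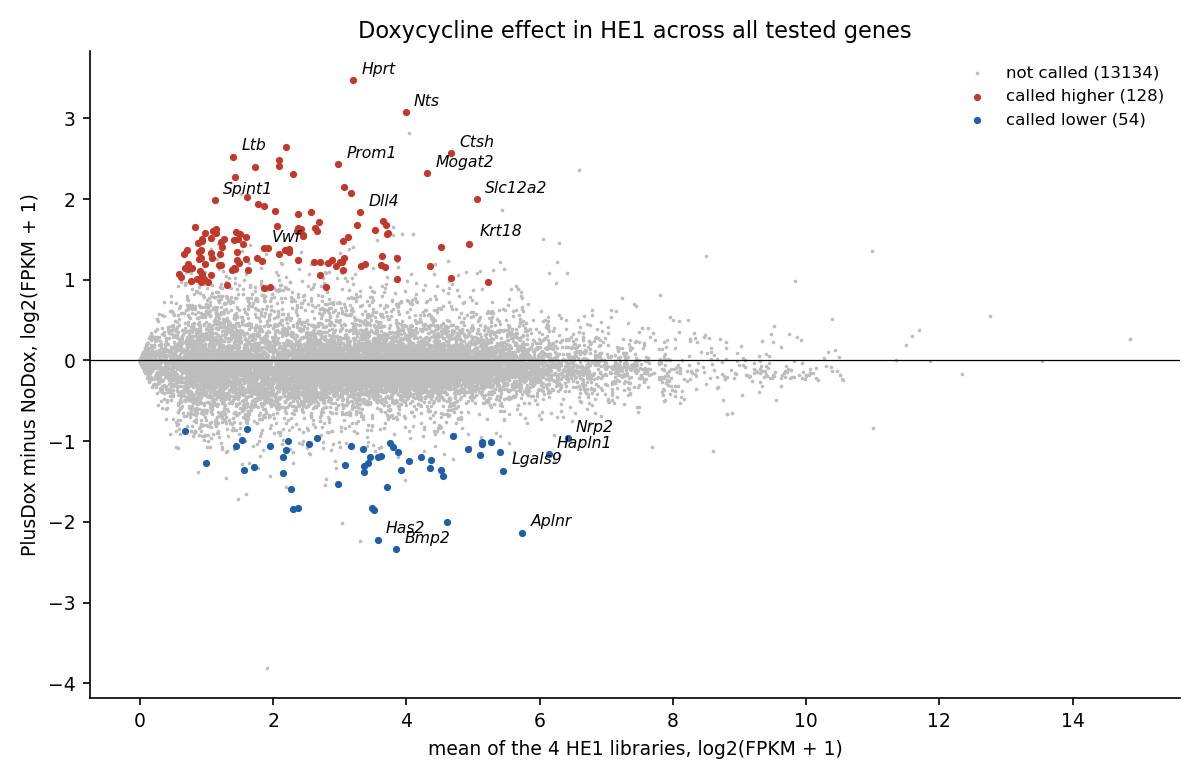
Difference between PlusDox and NoDox HE1 (vertical, log2) against the mean of the 4 HE1 libraries (horizontal, log2) for all 13316 tested genes, with the 128 called higher in red and the 54 called lower in blue. Most red points lie at low means and most blue points at middling ones. Among the labelled genes Hprt lies farthest above 0, and Bmp2, Has2 and Aplnr lie farthest below it.

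**Figure D2:**
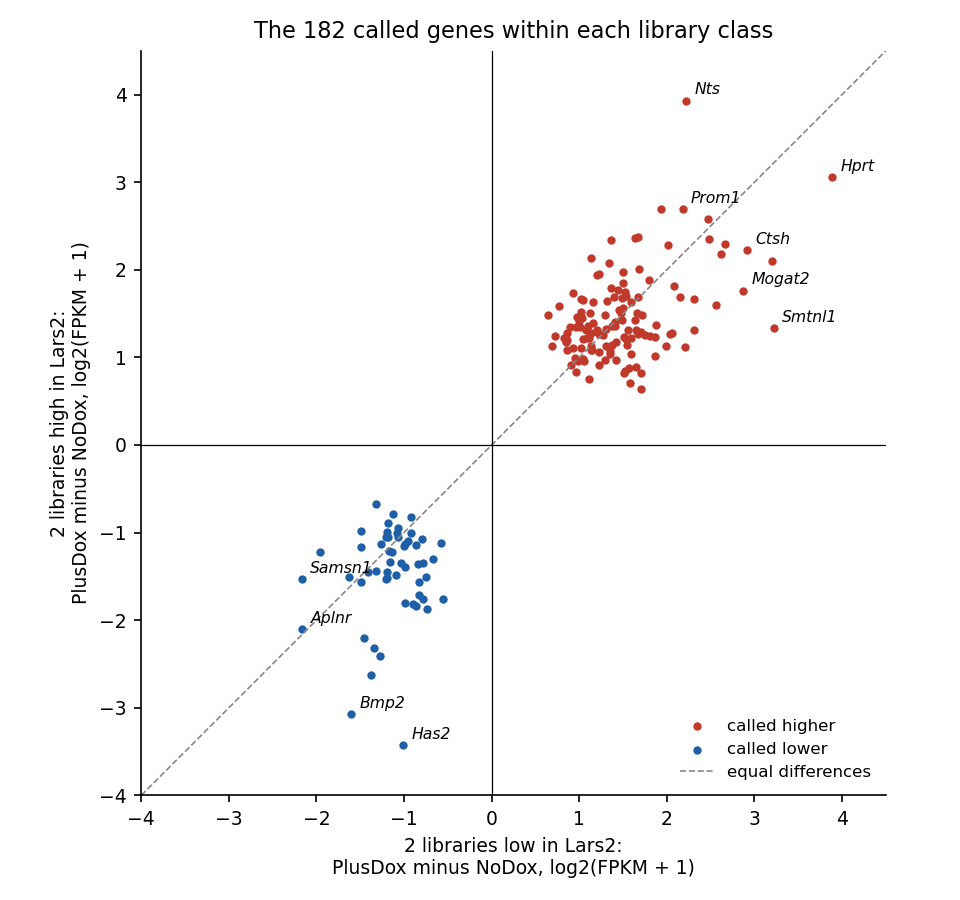
PlusDox minus NoDox difference of the 182 called genes between the 2 HE1 libraries low in Lars2 (horizontal, log2) and between the 2 high in it (vertical, log2). All points lie in the quadrants where both differences have the same sign, as they must for genes whose groups do not overlap. Has2 lies far from the diagonal at −1.01 and −3.43 and Aplnr close to it at −2.16 and −2.10.

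Hprt, whose enzyme recycles purines (mm10 chromosome X, 52988078 to 53021660), had the largest rise. It read 1.45 and 2.11 FPKM in the NoDox libraries and 45.1 and 19.4 FPKM in the PlusDox libraries (3.47 ± 0.36 SE, limma adjusted p = 0.00243). Whether this rise is a response to the fusion or comes from the inserted cassette itself was not tested. Phf6 and Plac1, the nearest tested genes with established names on either side, did not pass (−0.38, adjusted p = 0.702, and 0.25, adjusted p = 0.969). The mouse genes that lend their parts to the fusion did not pass either. Mecom read 17.0 and 28.3 FPKM in NoDox and 23.0 and 18.1 FPKM in PlusDox (−0.10 ± 0.32), and Runx1 read 3.56 and 1.41 against 3.99 and 0.993 FPKM (−0.07 ± 0.57). Both pairs overlapped. How reads of the fusion map to these genes was not given in the sources used, so their levels do not check its induction.

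A group of genes best known from epithelia rose in HE1, led by the serine protease inhibitors Spint2 and Spint1. Their target protease St14 rose by less. Of 25 epithelial genes, 10 were tested, of which 6 rose and 4 did not pass (median 1.3, against −0.07 over all tested genes). This list and those below were chosen with earlier results of these data known. Their counts and medians describe the members and do not test the groups. Spint2 went from 0.293 and 0.591 FPKM to 8.76 and 4.87 FPKM (2.40 ± 0.38), and Spint1 from 0.153 and 0.0412 FPKM to 4.17 and 2.66 FPKM (1.99 ± 0.25). St14, which encodes matriptase, went from 0.790 and 0.806 FPKM to 2.90 and 2.02 FPKM (0.93 ± 0.19). All 3 were therefore near or below 1 FPKM without the drug and above it with the drug. Krt18, a keratin of simple epithelia that some endothelia also hold, went from 17.6 and 17.9 FPKM to 54.7 and 45.2 FPKM (1.44 ± 0.22). Its usual partner Krt8 read 18.4 and 16.3 against 22.7 and 17.8 FPKM (0.20 ± 0.27), and the 2 groups overlapped. Dsp, the desmosomal plaque protein desmoplakin, rose by 1.55 ± 0.27, and Esrp2, an epithelial splicing regulator whose end overlaps Nfatc3 (not called), by 1.15 ± 0.18. Ocln, the tight junction protein occludin, read 5.79 and 8.79 against 27.4 and 19.2 FPKM without passing (1.55 ± 0.35, limma adjusted p = 0.0573).

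Genes that define epithelium were hardly detected. The other 15 of the 25 were under the expression filter and reached at most 1.27 FPKM in any HE1 library. Epcam was at 0.147 and 0.187 FPKM in NoDox and 0.284 and 0.269 FPKM in PlusDox, and Cdh1, E-cadherin, at 0.0839 and 0.220 against 0.510 and 0.305 FPKM. Outside the list, 3 other genes of cell junctions and epithelial membranes were among the 25 largest rises. Lsr and Marveld2 (tricellulin), both proteins of tricellular tight junctions, rose by 2.08 ± 0.28 and 1.92 ± 0.23, and Mall, a raft protein, by 2.48 ± 0.22. Mal, the neighbour of Mall on chromosome 2, was listed at 0 in both NoDox libraries and at 3.60 and 1.17 FPKM in PlusDox, and passed the test. It was singled out after its values were seen. The 6 epithelial calls were not all kept without NoDox replicate 1, NoDox replicate 2 or PlusDox replicate 1. Their signs held, as they had to for groups that did not overlap.

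Promoters of 4 strongly raised genes are shown because each holds a match to the AP-1 motif, the site of FOS and JUN proteins. RefSeq promoters of build GRCm38.p6, from 250 bases before to 50 after a start, were searched on both strands for TGANTCA. The promoter table covered 86 of the 128 genes that rose and 38 of the 54 that fell. Of 108 promoters of genes that rose, 15 held it (13.9%), against 3 of 59 promoters of genes that fell (5.08%), 4.99% of the 12334 promoters of tested genes and 7.81% of all 32851. The sequences run 5′ to 3′ on the strand of the gene, from 250 bases before to 20 after its start, with the match in capitals. They lie at chr2:119237110-119237379 (plus strand, Spint1), chr7:30973450-30973719 (minus, Lsr), chr5:44101717-44101986 (minus, Prom1) and chr10:102490399-102490668 (minus, Nts). The matches begin 6, 65, 88 and 207 bases upstream of the start.
Spint1: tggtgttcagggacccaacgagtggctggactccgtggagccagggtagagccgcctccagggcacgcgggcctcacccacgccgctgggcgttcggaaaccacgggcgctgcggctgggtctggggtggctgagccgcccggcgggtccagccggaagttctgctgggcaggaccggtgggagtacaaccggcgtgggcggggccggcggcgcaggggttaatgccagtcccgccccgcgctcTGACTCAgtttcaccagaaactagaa
Lsr: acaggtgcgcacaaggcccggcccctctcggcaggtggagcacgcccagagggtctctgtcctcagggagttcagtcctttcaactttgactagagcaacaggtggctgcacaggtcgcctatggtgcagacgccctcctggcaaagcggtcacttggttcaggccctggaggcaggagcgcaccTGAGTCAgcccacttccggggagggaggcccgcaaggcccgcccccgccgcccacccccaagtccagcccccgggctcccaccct
Prom1, upstream start: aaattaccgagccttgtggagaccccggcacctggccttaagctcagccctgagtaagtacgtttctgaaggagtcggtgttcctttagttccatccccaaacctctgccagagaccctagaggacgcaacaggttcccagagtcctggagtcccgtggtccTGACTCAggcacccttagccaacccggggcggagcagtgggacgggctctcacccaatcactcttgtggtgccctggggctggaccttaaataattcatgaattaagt
Nts: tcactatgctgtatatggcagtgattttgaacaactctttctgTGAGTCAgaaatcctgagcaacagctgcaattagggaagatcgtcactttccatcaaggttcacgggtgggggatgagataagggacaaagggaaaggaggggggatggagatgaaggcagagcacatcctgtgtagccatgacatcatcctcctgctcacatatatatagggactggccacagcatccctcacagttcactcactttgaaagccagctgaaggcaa
Prom1 has a further start listed, whose promoter also holds a match. The other motifs were counted in the same way. The ETS motif CCGGAAG was in 6.48% of promoters of raised genes against 17.2% of those of tested genes, the RUNX motif TGTGGT in 10.2% against 12.7% and the GATA motif AGATAA in 5.56% against 6.57%. In promoters of the genes that fell these shares were 3.39%, 15.3% and 13.6%. CAAGATA and AGATGAG, bound by the first and second zinc finger sets of EVI1, were in 0.926% and 3.70% of promoters of raised genes, against 1.17% and 2.93% of those of tested genes. For these 2 sets the share was 1.69% each in promoters of the genes that fell. The RBPJ motif GTGGGAA of Notch signalling was in 7.41% of promoters of raised genes, 10.2% of those of the genes that fell and 6.07% of those of tested genes. A match describes these letters only, and promoters of 1 gene can overlap.

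Some genes of arterial endothelium rose in HE1. Of 22 genes of arterial identity, 19 were tested, of which 4 rose, 0 fell and 15 did not pass (median 0.58, and 17 of 19 above 0). Vegfc, a growth factor for VEGF receptors, read 4.2 and 8.18 FPKM in NoDox and 24.9 and 19.4 FPKM in PlusDox (1.73 ± 0.30). The chemokine receptor gene Cxcr4 read 0.469 and 2.15 against 7.08 and 6.46 FPKM (1.85 ± 0.38). Neither pair overlapped, and in both genes NoDox replicate 1 was the lowest library. Clu (clusterin) and Bmx, a cytoplasmic kinase of arterial endothelium, rose by 1.19 ± 0.24 and 1.14 ± 0.25. Gja5, which encodes the arterial gap junction protein connexin 40, did not pass despite a large difference, at 1.76 and 12.9 against 36.7 and 49.5 FPKM (2.82 ± 0.69, limma adjusted p = 0.0785). Sema3g, an arterial semaphorin, read 5.94 and 13.3 against 32.9 and 24.6 FPKM (1.56 ± 0.41, adjusted p = 0.104). Without NoDox replicate 1 or PlusDox replicate 1, 0 of these 4 genes remained called, and without NoDox replicate 2 or PlusDox replicate 2, 2 or 3 did, and the difference of Bmx was 0.73 without PlusDox replicate 1. With a term for library class 2 of the 4 remained, Cxcr4 and Bmx being lost (adjusted p = 0.0610 and 0.0588). A predicted gene overlaps the start of Vegfc and was also called higher, so their reads may not be fully separate.

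Among 26 tested genes of the Notch pathway, 2 ligands rose and 0 of 4 receptors passed in limma, with 0 at an unadjusted p below 0.05. Dll4, the main arterial ligand, read 2.93 and 5.98 FPKM in NoDox and 23.3 and 13.5 FPKM in PlusDox (1.84 ± 0.40), and Jag1 read 6.11 and 8.37 against 17.9 and 17.1 FPKM (1.18 ± 0.23). A further ligand, Jag2, read 14 and 19.9 against 40.1 and 29.0 FPKM and did not pass (0.99 ± 0.27, limma adjusted p = 0.125). The 2 ligands were the only calls among the 26 genes. The median difference was 1.08 for the 4 tested ligands and 0.01 for the 4 receptors, with Notch1 at 65.1 and 65.7 against 88.7 and 54.1 FPKM and Notch4 at 22.9 and 35.2 against 39.0 and 36.3 FPKM. The median was −0.03 for 14 proteases, glycosyltransferases and nuclear partners. Of 4 tested target genes, Hey1 read 4.02 and 8.81 against 20.8 and 16.9 FPKM (1.49 ± 0.34, adjusted p = 0.0556) and Hes1 6.75 and 10.2 against 21.2 and 13.6 FPKM (0.95 ± 0.28, adjusted p = 0.171). The NoDox and PlusDox libraries did not overlap in either target, which also held for 35.6% of all tested genes. Neither ligand call remained when any 1 of the 4 HE1 libraries was left out. With a term for library class 4 Notch genes were called higher, Jag1 with Jag2, Hey1 and Hes1 (adjusted p = 0.0475, 0.0227 and 0.0150), and Dll4 was lost (0.0574).

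Of the venous genes, the receptors Aplnr and Nrp2 fell. Of 10 tested genes of venous identity, 2 fell, 0 rose and 8 did not pass (median −0.46). Aplnr, the apelin receptor, stood at 104 and 118 FPKM in NoDox and 25.6 and 23.5 FPKM in PlusDox (−2.13 ± 0.31, limma adjusted p = 0.0067). Nrp2, a coreceptor for VEGFC and semaphorins, went from 113 and 125 FPKM to 65.3 and 55.6 FPKM (−0.96 ± 0.18). In each gene the 2 PlusDox libraries were close together and well below both NoDox libraries. Nr2f2, which encodes the venous regulator COUP-TFII, read 3.05 and 3.77 against 1.89 and 1.6 FPKM (−0.68 ± 0.21, adjusted p = 0.178), and Ephb4 104 and 130 against 85.3 and 77.1 FPKM (−0.51 ± 0.23, adjusted p = 0.492). Emcn and Icam1 were among the 3 venous genes with differences above 0. Of the other VEGF and angiopoietin genes, the receptors Kdr (242 and 322 against 243 and 163 FPKM) and Tek (143 and 164 against 107 and 82.6 FPKM) did not pass, nor did the ligand Vegfa (−0.47 ± 0.26). Thus 1 ligand, Vegfc, rose and 1 coreceptor, Nrp2, fell among 13 tested genes of that list. Without NoDox replicate 1, 0 of the 2 venous calls remained, and 1 remained without any other single HE1 library.

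**Figure D3:**
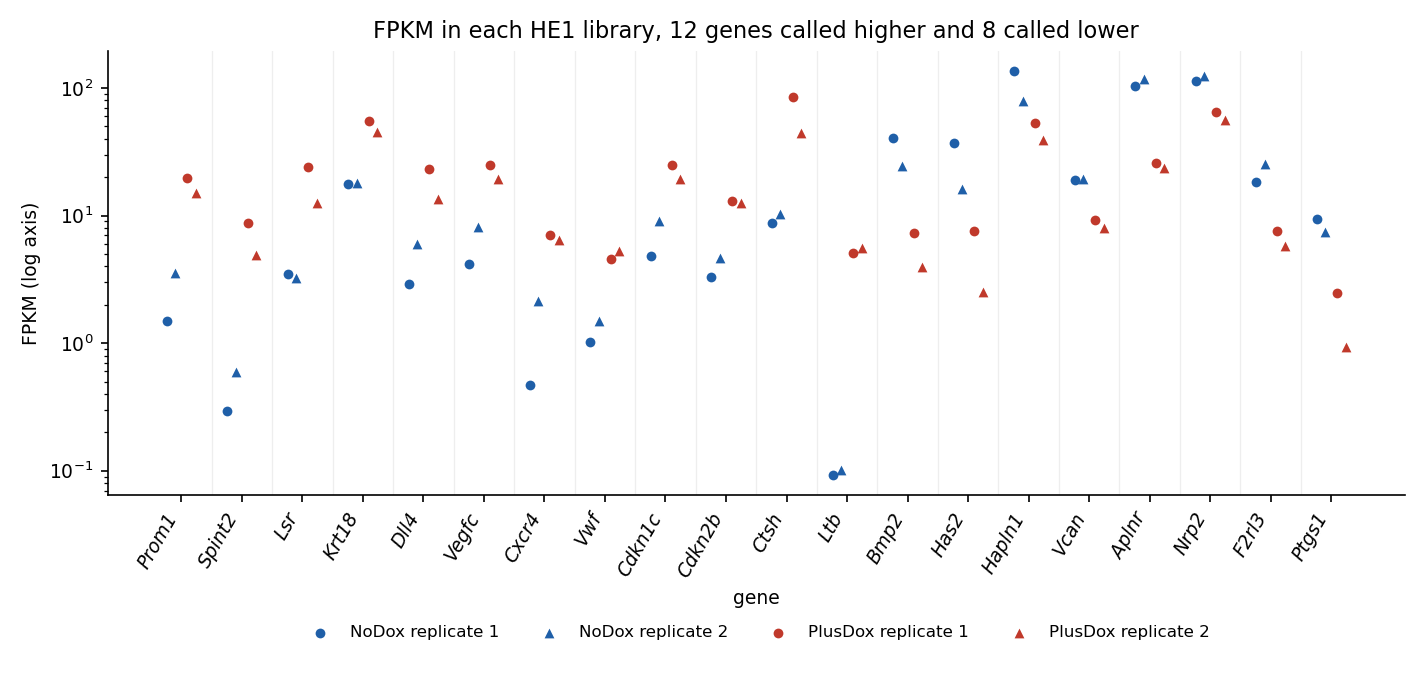
FPKM (log axis) of 20 called genes in each of the 4 HE1 libraries, NoDox in blue and PlusDox in red, with a circle for replicate 1 and a triangle for replicate 2. In all 12 genes on the left both PlusDox libraries lie above both NoDox libraries, and in the 8 on the right below them. Ltb shows the widest separation, from 0.093 and 0.102 to 5.11 and 5.54 FPKM.

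Bmp2, a bone morphogenetic protein ligand, had the lowest difference of all named genes. It read 40.5 and 24.3 FPKM in NoDox and 7.31 and 3.93 FPKM in PlusDox (−2.34 ± 0.32, limma adjusted p = 0.00516). Its relative Bmp4 differed in the opposite direction without passing, at 18.0 and 36.8 against 55.8 and 58.9 FPKM (1.12 ± 0.29, adjusted p = 0.0939). Nodal, a ligand of early mesoderm that is not usually an endothelial product, rose from 0.350 and 0.162 FPKM to 3.27 and 2.49 FPKM (1.62 ± 0.22). Bmp2 and Nodal were the 2 calls among 42 tested BMP and TGF-beta genes, and 40 did not pass (median 0.03). None of 11 tested receptors passed in limma, and 0 had an unadjusted p below 0.05. The downstream reporter gene Id1 read 125 and 117 against 154 and 124 FPKM, with overlapping groups (0.19 ± 0.18). Both calls remained without NoDox replicate 2, PlusDox replicate 1 or PlusDox replicate 2, and neither remained without NoDox replicate 1.

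The synthase, proteoglycan and link protein of the hyaluronan-rich matrix fell. Hyaluronan is a long sugar polymer, made at the cell surface by synthases and bound into a gel by versican and link proteins. Of 10 tested genes of this list 3 fell, 0 rose and 7 did not pass (median −0.42). The synthase Has2 read 37.0 and 16.2 FPKM in NoDox and 7.55 and 2.52 FPKM in PlusDox (−2.22 ± 0.43). The proteoglycan Vcan read 19.1 and 19.5 against 9.25 and 8.06 FPKM (−1.07 ± 0.19), and the link protein Hapln1 136 and 79.4 against 53.6 and 39.5 FPKM (−1.16 ± 0.24). In each, both PlusDox libraries lay below both NoDox libraries, with NoDox replicate 1 the highest for Has2 and Hapln1. The receptors did not pass, with Lyve1 at 6.96 and 8.66 against 3.35 and 2.54 FPKM (adjusted p = 0.204) and Cd44 at 16.3 and 20.9 against 31.5 and 30.6 FPKM (adjusted p = 0.442). Hapln1 and Vcan lie next to each other on chromosome 13 (mm10 89540529 to 89611832 and 89655309 to 89743027). The next tested gene before them, Edil3, an integrin-binding matrix gene singled out after its values were seen, also fell, from 12.0 and 11.9 FPKM to 5.46 and 4.96 FPKM (−1.06 ± 0.23). These were the 3 tested genes of that stretch. Of the 3 hyaluronan calls, 0, 2, 1 or 0 remained without NoDox replicate 1, NoDox replicate 2, PlusDox replicate 1 or PlusDox replicate 2, and Hapln1 was lost with a term for library class (adjusted p = 0.0502).

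Genes that act on clotting and vessel tone moved in both directions. Vwf, the carrier of clotting factor VIII and a product of endothelium and platelets, read 1.03 and 1.48 FPKM in NoDox and 4.53 and 5.28 FPKM in PlusDox (1.40 ± 0.23). F2rl3, the thrombin receptor PAR4, went from 18.3 and 25.4 FPKM to 7.56 and 5.81 FPKM (−1.56 ± 0.27). These were the 2 calls among 14 tested genes of the thrombin and protein C list. The anticoagulant Tfpi read 34.0 and 34.4 against 14.5 and 15.1 FPKM (−1.16 ± 0.28, limma adjusted p = 0.0793). Replicates of Tfpi were close within each group. Among 16 tested genes of apelin, endothelin and other vasoactive signals, Adm (adrenomedullin) rose from 0.350 and 0.366 FPKM to 2.04 and 2.55 FPKM (1.28 ± 0.22), and it passed the expression filter only through the PlusDox HE1 libraries. Ptgs1, the cyclooxygenase COX-1, fell from 9.34 and 7.45 FPKM to 2.49 and 0.939 FPKM (−1.85 ± 0.30), as did Aplnr. Endothelin 1 and its receptor differed in opposite directions without passing, Edn1 at 28.4 and 75.0 against 118 and 141 FPKM (adjusted p = 0.337) and Ednrb at 28.2 and 23.0 against 12.1 and 5.88 FPKM (adjusted p = 0.0644). Without NoDox replicate 1, NoDox replicate 2, PlusDox replicate 1 or PlusDox replicate 2, 0, 1, 0 or 0 of the 2 thrombin calls and 0, 2, 2 or 1 of the 3 vasoactive calls remained.

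Inhibitors of cyclin-dependent kinases rose in part. Cdkn1c, which encodes p57, read 4.84 and 9.01 FPKM in NoDox and 24.8 and 19.2 FPKM in PlusDox (1.58 ± 0.28). Cdkn2b, which encodes p15, read 3.30 and 4.69 against 13.1 and 12.5 FPKM (1.48 ± 0.23). The other 6 inhibitors did not pass, with Cdkn1a (p21) at 39.7 and 69.0 against 60.4 and 31.6 FPKM and overlapping groups. Ccnd1, cyclin D1, which drives the kinases these proteins block, read 33.4 and 56.2 against 75.9 and 67.1 FPKM (0.71 ± 0.31, limma adjusted p = 0.487). Altogether 2 of 22 genes of this list rose and 0 fell (median −0.08). Without NoDox replicate 1 or PlusDox replicate 1 neither call remained, and both remained without NoDox replicate 2 or PlusDox replicate 2. Cdkn1c sits in an imprinted stretch of chromosome 7 where other genes rose as well. Of 8 tested genes there, 4 were called higher and 0 differences were below 0. Slc22a18, the next tested gene, went from 0.0973 and 0.230 FPKM to 2.58 and 1.41 FPKM (1.34 ± 0.25). The TNF receptor family genes Tnfrsf26 and Tnfrsf23 rose by 1.12 ± 0.21 and 1.67 ± 0.30. Tnfrsf22, which lies between Tnfrsf26 and Tnfrsf23, did not pass (0.79 ± 0.21, limma adjusted p = 0.116). Nap1l4, between Slc22a18 and Tnfrsf26, read 68.6 and 82.5 against 84.2 and 68.3 FPKM (0.01 ± 0.20). The genes of this stretch were looked at after the values were seen.

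No gene of DNA replication (0 of 45) or mitosis (0 of 37) passed in limma. At an unadjusted p below 0.05, 9 and 8 of them were lower and 0 were higher, against 4.56% of all tested genes lower. Differences were below 0 for 43 of the 45 and 35 of the 37, with medians of −0.31 and −0.36. These medians differed by library class, being −0.12 and −0.10 between the libraries low in Lars2 and −0.52 and −0.65 between those high in it. The p53 target list also had 0 calls of 21 tested genes, with 2 higher at an unadjusted p below 0.05 (median 0.05).

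**Figure D4:**
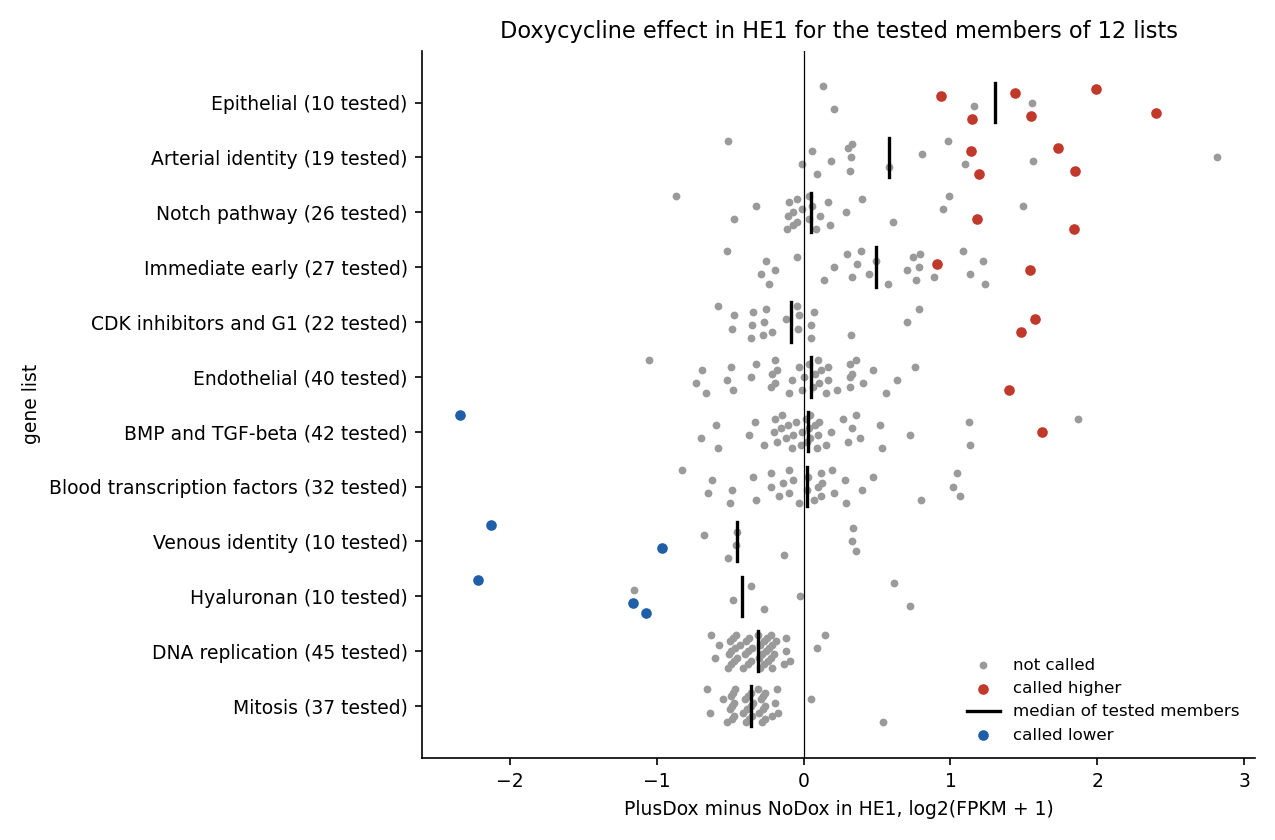
PlusDox minus NoDox difference in HE1 (horizontal, log2) of each tested member of 12 gene lists (rows), with the 6 epithelial, 4 arterial and other called genes in red or blue and the median as a bar. The epithelial median is 1.3 and the arterial 0.58, the venous −0.46 and the hyaluronan −0.42, and the replication and mitosis genes form narrow bands at −0.31 and −0.36 with 0 calls. The lists were chosen with earlier results of these data known.

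Of the immediate early genes, which answer growth factors within minutes, Dusp5 and Ier3 rose. Of 27 tested immediate early genes 2 rose and 0 fell (median 0.50, 21 above 0), and 11 were higher at an unadjusted p below 0.05, against 5.03% of all tested genes. Dusp5, a nuclear ERK phosphatase, went from 1.80 and 2.67 FPKM to 8.69 and 8.0 FPKM (1.54 ± 0.28), and Ier3 from 3.24 and 5.09 FPKM to 8.80 and 8.29 FPKM (0.91 ± 0.20). Fos and Egr1 did not pass, at 15.7 and 30.4 against 54.0 and 41.7 FPKM (limma adjusted p = 0.141) and at 10.2 and 7.04 against 32.5 and 13.9 FPKM (adjusted p = 0.217). Etv4, an ETS factor induced by FGF and ERK signals, went from 1.44 and 3.03 FPKM to 11.9 and 8.84 FPKM (1.84 ± 0.27). Some other called genes were picked out singly after their values were seen, from no list and with no count of how many such genes there are. Etv5, a close relative of Etv4, rose from 1.91 and 1.94 FPKM to 6.80 and 6.48 FPKM (1.38 ± 0.22) and the ERK phosphatase Dusp9 from 5.2 and 5.97 FPKM to 19.2 and 19.2 FPKM (1.62 ± 0.21). The EGF receptor gene Egfr rose from 2.82 and 2.46 FPKM to 10.4 and 9.68 FPKM (1.6 ± 0.19), and its ligand Hbegf rose by 1.21 ± 0.25. The growth factor genes Pdgfa and Wnt11 rose by 1.64 ± 0.36 and 1.49 ± 0.18, Wnt11 having passed the expression filter only through the PlusDox HE1 libraries. Dusp6, a further ERK phosphatase, read 17.6 and 35.2 against 45.4 and 48.5 FPKM and did not pass (0.89 ± 0.36, adjusted p = 0.402). In all of these pairs the PlusDox libraries lay above the NoDox libraries, while 35.6% of all tested genes had groups that did not overlap. Neither immediate early call remained without NoDox replicate 1, PlusDox replicate 1 or PlusDox replicate 2, and 1 remained without NoDox replicate 2.

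Genes of lysosomes and immune cells rose singly. Ctsh, the lysosomal protease cathepsin H, went from 8.72 and 10.3 FPKM to 84.3 and 44.3 FPKM (2.57 ± 0.31), 1 of 12 tested lysosomal proteases to pass. Ltb, lymphotoxin beta of the TNF family, had the lowest adjusted p of the named genes and went from 0.093 and 0.102 FPKM to 5.11 and 5.54 FPKM (2.53 ± 0.18, limma adjusted p = 0.000127). The lysosomal membrane genes Laptm5 and Cd68, often used as blood and macrophage genes, rose by 1.17 ± 0.25 and 1.21 ± 0.21. Laptm5 was the 1 call among 21 tested pan-leukocyte genes, of which 9 were above 0 and 11 below (median −0.001). Cd68 was the 1 call among 16 tested myeloid genes, of which 5 were above 0 and 9 below (median −0.02). Of 18 tested genes of cathepsins and lysosomes 3 rose in all, and 0, 1, 1 or 3 of these remained without NoDox replicate 1, NoDox replicate 2, PlusDox replicate 1 or PlusDox replicate 2. Over the whole marker list, Ptprc was at 0 FPKM in both NoDox libraries and in PlusDox replicate 2, and the 4 leukocyte markers summed to 1.58 to 1.68 FPKM in NoDox and 2.09 to 4.74 FPKM in PlusDox. The part of leukocytes in these rises was not tested further. Of 16 tested chemokine genes Cxcr4 passed, a call lost with a term for library class (adjusted p = 0.0610), and of 30 interferon-inducible genes 0 passed in limma, with 2 higher at an unadjusted p below 0.05. Their median difference was −0.40 between the libraries low in Lars2 and 0.78 between those high in it.

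The regulators of blood formation did not pass in HE1. Of 32 tested blood transcription factors 0 passed in limma, with 4 higher and 2 lower at an unadjusted p below 0.05 (median 0.02). Hhex and Spi1 came closest, at 12.9 and 14.7 against 37.5 and 23.8 FPKM (1.07 ± 0.24, adjusted p = 0.0573) and at 0.784 and 0.635 against 3.94 and 1.52 FPKM (1.05 ± 0.27, adjusted p = 0.105). With a term for library class Hhex passed (adjusted p = 0.0282). Spi1 encodes PU.1, a regulator of myeloid cells, and Hhex a homeobox factor of early endothelium and blood. The 7 markers of blood commitment summed to 77.8 to 106 FPKM in NoDox and 35.1 to 69.2 FPKM in PlusDox. Most of that sum came from Itga2b, the platelet integrin CD41 (51.1 and 29.2 against 24.2 and 10.5 FPKM, adjusted p = 0.325), and the stem cell factor receptor Kit (40.5 and 43.6 against 32.2 and 21.3 FPKM, adjusted p = 0.453). Neither pair overlapped. Erythroid markers summed to 141 to 169 against 79.5 to 109 FPKM, and 0 of 22 tested erythroid genes passed in limma, with 3 lower at an unadjusted p below 0.05. Prom1, the stem cell surface protein CD133, was the 1 of 14 tested progenitor surface genes to rise, from 1.49 and 3.57 FPKM to 19.7 and 15.1 FPKM (2.44 ± 0.33).

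The 5 markers of smooth muscle and mesenchyme summed to 120 to 202 FPKM in NoDox and 232 to 311 FPKM in PlusDox, and none of the 4 tested passed in limma. Most of the sum came from the contractile genes Acta2 (0.63, adjusted p = 0.868) and Tagln (1.09, adjusted p = 0.471). Pdgfrb and Col1a1 were each at −0.11, and Pdgfra was under the filter. Of 18 tested genes of the separate, longer list of mesenchymal and smooth muscle genes 1 rose. This was Myl9, a myosin light chain, which went from 2.80 and 3.82 FPKM to 8.46 and 9.46 FPKM (1.22 ± 0.20). The part of such cells in the results was not tested. The cardiac factor Gata4 read 27.4 and 17.9 against 14.7 and 8.06 FPKM, and 0 of 12 tested cardiac genes passed in limma, with 5 lower at an unadjusted p below 0.05. Of 22 tested matrix and basement membrane genes 0 passed in limma, with 1 higher and 1 lower at an unadjusted p below 0.05.

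The remaining large rises included a peptide hormone, enzymes, receptors and transporters. Nts, which encodes the peptide hormone neurotensin, went from 2.25 and 8.22 FPKM to 41.9 and 48.5 FPKM (3.07 ± 0.62). St6galnac2, a sialyltransferase, went from 0.930 and 0.718 FPKM to 14.7 and 7.29 FPKM (2.65 ± 0.30), and Mogat2, an enzyme of triglyceride synthesis, from 8.71 and 7.18 FPKM to 58.9 and 31.9 FPKM (2.32 ± 0.29). The R-spondin receptor Lgr6 (2.41 ± 0.29), the membrane-bound semaphorin Sema7a (2.32 ± 0.33) and the secretory granule protein Hid1 (2.15 ± 0.25) also rose. The organic anion transporter Slco4a1 and the sodium, potassium and chloride cotransporter Slc12a2 rose by 2.02 ± 0.27 and 2.00 ± 0.30. Slc12a2 was the more abundant, at 11.6 and 20.9 FPKM in NoDox and 67.1 and 64.2 FPKM in PlusDox. Chrnb1, a subunit of the muscle acetylcholine receptor, Stmn2, a microtubule regulator, and Zfp185, an actin-linked LIM protein, rose by 1.71 ± 0.30, 1.68 ± 0.30 and 1.81 ± 0.27. Smtnl1, a smoothelin-like protein, read 0.259 and 0.194 against 10.1 and 2.17 FPKM (2.28 ± 0.43), and without PlusDox replicate 1 the difference was 1.37. Tmem255b rose by 1.94 ± 0.24, but it overlaps Gas6, which was called lower, and the strand setting of the authors' quantification was not stated.

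The remaining large falls included cell surface proteins, signalling adaptors and enzymes. Oit3, a zona pellucida domain protein known from sinusoidal endothelium, went from 56.8 and 40.5 FPKM to 14.9 and 8.32 FPKM (−2.01 ± 0.31). Samsn1, a signalling adaptor, and Gas7, an actin-binding protein, fell by 1.85 ± 0.23 and 1.83 ± 0.21, from 19.5 and 22 to 4.13 and 6.07 FPKM and from 22.4 and 18.1 to 5.94 and 4.07 FPKM. Replicates within a group were close in both. The sugar-binding protein gene Lgals9 fell from 67.4 and 71.2 FPKM to 30.4 and 22.7 FPKM (−1.36 ± 0.26), the scavenger receptor gene Colec12 from 25.3 and 23.3 FPKM to 9.91 and 9.38 FPKM (−1.25 ± 0.20) and Il4ra, the receptor for interleukin 4, from 27.6 and 34.0 FPKM to 11.5 and 13.4 FPKM (−1.24 ± 0.27). The glutamate transporter Slc1a2 (−1.59 ± 0.27), the aldo-keto reductase Akr1b8 (−1.53 ± 0.24), the glutathione transferase Gstk1 (−1.38 ± 0.20) and the chondroitin sulfate enzyme Csgalnact1 (−1.29 ± 0.28) fell as well. The others of the 25 largest falls were Syt13, Add3, Vwa7, Slc26a10, Capn5, Dcaf12l1, Cped1, Prtg, Cnnm2 and Gem, at −1.83 to −1.19. Vwa7, Slc26a10 and Capn5 overlap other tested genes that were not called, so their reads may not be fully separate.

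The HE1 response was set beside those of HE2, the next population, and of HP, the hematopoietic progenitors, whose NoDox and PlusDox libraries are separate but share the pooled estimate of spread. Of the 128 genes that rose in HE1, 94 also rose in HE2 (73.4% of the HE1 genes and 18.5% of the 509 HE2 genes, where 3.82% of tested genes rose). Of the 54 that fell, 21 also fell in HE2 (38.9%, or 7.05% of 298, with 2.24% of tested genes lower). No gene was called in opposite directions. In HP, 9 of the 128 rose (7.03%, or 11.3% of 80, with 0.601% of tested genes higher) and 0 of the 54 fell, of 31 lower there (0.233%), while 11 of the 54 were lower at an unadjusted p below 0.05 (2.7% of tested genes). When NoDox HE1 replicate 1 or 2 was left out, 2 or 55 rises and 0 or 10 falls were shared with HE2, and when PlusDox HE1 replicate 1 or 2 was left out, 20 or 79 rises and 13 or 7 falls. With a term for library class in the fit, 111 rises and 34 falls were shared.

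Side by side, Nts differed by 3.07 ± 0.62 in HE1, 3.11 in HE2 and 0.47 in HP, and Prom1 by 2.44, 2.61 and 0.30. Bmp2 differed by −2.34, −1.85 and −0.84 and Aplnr by −2.13, −1.39 and −0.62. For these 4 genes the HP value was the nearest to 0, but their levels in HP were low. There Nts read 0 and 0 FPKM in NoDox and 0.203 and 0.601 FPKM in PlusDox, and Prom1 at most 0.253 FPKM. Aplnr read 2.28 and 2.81 against 1.24 and 1.37 FPKM in HP, and Bmp2 6.54 and 5.46 against 3.84 and 2.13 FPKM. The scale understates changes near 0, so a weaker response and a lower level in HP were not told apart. The same holds for the medians that follow. The median difference of the 128 was 1.37 in HE1, 1.28 in HE2 and 0.41 in HP, and that of the 54 was −1.20, −0.75 and −0.14, HE1 being the population in which they were chosen. The 9 genes called higher in all 3 populations, named after their values were seen, were Hprt, Cdkn1c, Ltb, Mogat2, Nqo1, Slc16a9, Stk26, Pak1 and Sh3bgrl2. Cdkn1c differed by 1.58, 1.95 and 1.52. Calls in HE1 that were missed elsewhere, 67 in all, do not show that the response was particular to HE1. The difference between the effects in HE1 and HE2 passed for 6 of 13316 genes (0.0451%) and that between HE1 and HP for 5 (0.0375%). Of the genes called in HE1, Tirap, an adaptor of Toll-like receptors, differed from HE2, and Mall and Zfp185 differed from HP. Leaving out each of the 12 libraries in turn gave 0 to 4 and 0 to 7 such genes, so these calls depend on single libraries. Tirap read 3.59 and 4.68 against 15.0 and 12.6 FPKM in HE1, and in HE2 the PlusDox libraries were the lower pair (−0.53, adjusted p = 0.12). Slco4a1 and Adm, raised in HE1, stood at −0.46 and 0.03 in HE2, and for Slco4a1 the test of the difference gave an adjusted p of 0.0558.

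**Figure D5:**
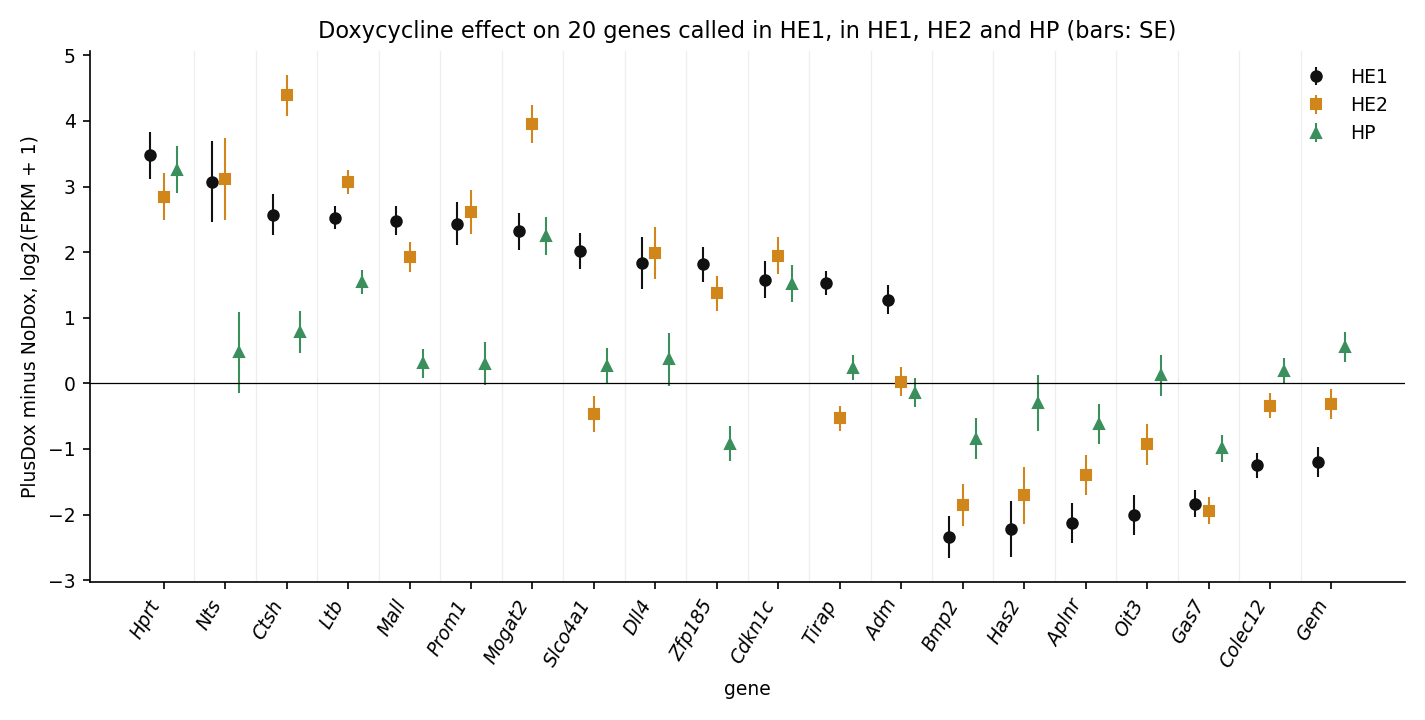
PlusDox minus NoDox difference (vertical, log2, with SE) in HE1 (circles), HE2 (squares) and HP (triangles) for 20 genes called in HE1. Genes such as Nts, Ctsh, Mall, Prom1 and Dll4 were below 1 FPKM in every HP library, where the scale understates changes. The circle lies farthest above the square for Slco4a1 (2.02 and −0.46), Tirap (1.53 and −0.53) and Adm (1.28 and 0.03), and the square farthest above the circle for Ctsh (2.57 and 4.39) and Mogat2 (2.32 and 3.95), and the triangles lie nearer 0 for most genes other than Hprt, Mogat2 and Cdkn1c.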

How the data were processed

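Stranded total RNA libraries were sequenced for 6 groups of 2, of which the 4 HE1 libraries are described. The authors deposited 1 FPKM value per gene name and library. The unit was read from the values. Trimmomatic 0.32, HISAT2 2.1.0, StringTie 1.3.3 and build mm10 are named per the submitters' processing notes, and the strand setting and annotation were not given in the sources used. Read totals are unknown, so no counting intervals were computed.

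Values of repeated names were summed. Testing was limited to genes at 1 FPKM or more in 2 or more libraries (13316 of 35976 names). A model with 6 group means was fitted to log2(FPKM + 1) with limma 3.58.1 in R 4.3.3, with an intensity trend and Benjamini-Hochberg adjustment over all tested genes. The spread was pooled over the 6 groups (6 residual degrees of freedom). The script was tested on simulated data. RefSeq entries matched 32501 names.

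Members, the 29 gene lists and the library classes were chosen with earlier results of these data known. Named genes were Hprt, Mecom, Runx1, the 25 largest rises and falls among called genes with a group mean of at least 5 FPKM, called list members and called differences from HE2 or HP. Other list members were picked by role after their values were seen, and predicted genes were not named. Alternatives covered the pseudocount, the filter, scaling, blocks, library classes and each library left out, and 2 were chosen after seeing the data, the libraries low in Lars2 alone and rescaling without 3 features.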

Additional observations from a re-analysis of the deposited data

Results flagged for a closer look

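The doxycycline effect in HE1 differed from that in HE2 or HP, by limma's test of the difference itself, for the following genes. The adjusted p was 0.0397 for each difference from HE2 and 0.0480 for each from HP.

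Of the genes with a larger effect in HE2, Il1b, the cytokine interleukin 1 beta, read 0 and 0.0293 FPKM in NoDox HE1, 0.254 and 0.105 FPKM in PlusDox HE1, and 15.6 and 21.0 FPKM in PlusDox HE2 (HE1 minus HE2 −3.96). Ptprc, the leukocyte antigen CD45, read 0 and 0 against 0.0659 and 0 FPKM in HE1 and 8.43 and 14.8 FPKM in PlusDox HE2 (−2.67). Naaa, a lysosomal amidase, read 0.646 and 0.850 against 1.33 and 1.44 FPKM in HE1 and 7.55 and 6.58 FPKM in PlusDox HE2 (−2.16). Rhag, an erythroid membrane protein (−1.80), and Ctsj, a cathepsin (−1.69), were below 1 FPKM in every HE1 library. These 5 genes were therefore low in HE1 with or without the drug. Tirap was the 1 gene with a higher effect in HE1 than in HE2 (2.06).

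Against HP, the effect in HE1 was higher for Zfp185 (2.73) and Mall (2.18). In HP, Zfp185 read 3.50 and 1.95 FPKM in NoDox and 1.00 and 0.846 FPKM in PlusDox, without passing (−0.92). Mall read 0 and 0 against 0.215 and 0.253 FPKM there, so it was hardly detected in HP with or without the drug. The effect in HE1 was lower than in HP for Rhag (−1.96) and for Ramp2, a partner of the adrenomedullin receptor (−2.40). Ramp2 read 518 and 617 against 405 and 312 FPKM in HE1 and 5.00 and 4.28 against 17.8 and 17.7 FPKM in HP, so that its level differed far more between the populations than with doxycycline. The causes of these differences were not tested.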

How the results depend on the processing

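With 2 libraries a group, the number of calls in HE1 depended on the processing, and the cause was not tested. Against 182 calls, limma made 97 with a filter of 5 FPKM, 97 with a pseudocount of 0.1, 304 with median scaling, 351 with quantile normalization, 2 with only the 4 HE1 libraries and 0 with only the 7 libraries low in Lars2 (573 at an unadjusted p below 0.05). It made 2 to 191 with each of the 12 libraries left out in turn, fewest without NoDox HE1 replicate 1. Rises made up 70.3% of calls, 60.8% with the stricter filter, 50% with the 4 libraries alone, and 100%, 80.9%, 45.9% and 88.8% without NoDox replicate 1, NoDox replicate 2, PlusDox replicate 1 and PlusDox replicate 2. A term for library class (229), no filter (149), no intensity trend (203) and rescaling without 3 features (226) gave counts within 1.5 times of 182, but not all the same genes: 169, 87, 182 and 159 of the 182 were among them, and 80, 44, 87 and 78 of the 87 named calls.

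The HE1 libraries themselves correlated at 0.964 to 0.983 across genes. To see whether replicate numbers mark pairs, the replicate 1 minus replicate 2 differences were correlated between groups. These correlations ran from −0.10 to 0.526. They were 0.0818 between NoDox and PlusDox HE1, and 0.5 and 0.415 between PlusDox HE1 and PlusDox HE2 or HP. A component shared by number may thus be present in some groups, and the main fit did not take the numbers as pairs. With the replicate number as a block the calls were 459 in HE1 (57.7% rises, all 182 among them), 2296 in HE2, 305 in HP, 47 for HE1 minus HE2 and 54 for HE1 minus HP.

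In HE2, 807 calls became 1254 with the class term, 1548 with median scaling, 450 with no filter, 1824 with quantile normalization, 1416 with rescaling (rises 42.5% of calls, against 63.1%), 7 with the 7 libraries and 172 to 877 without single libraries. In HP, 111 became 68 with the stricter filter, 175 with the class term, 190 with median scaling, 3 with the 7 libraries and 10 to 124 without single libraries. For HE1 minus HE2, 6 became 0 with the stricter filter or a pseudocount of 0.1, 1 with the class term, 2 with rescaling, 10 with no trend or quantile normalization, and 0 to 4 without single libraries. For HE1 minus HP, 5 became 1 with the stricter filter or class term, 24 with median scaling, 20 with no filter, 14 with quantile normalization, 0 with rescaling or the 7 libraries, and 0 to 7 without single libraries.

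Among named genes, differences near 0 changed sign. With the 7 libraries low in Lars2, Cdh5 was at −0.017, Pecam1 at −0.28, Rhag at −0.037 and Runx1 at 1.05. Without single libraries Cdh5 ran from −0.12 to 0.43, Cdkn1a from −0.71 to 0.20, Mecom from −0.45 to 0.25, Nap1l4 from −0.14 to 0.16, Notch1 from −0.27 to 0.43, Pecam1 from −0.20 to 0.41, Rhag from −0.019 to 0.084 and Runx1 from −0.73 to 0.59.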
